A study of Homo sapiens with 24 samples.

Results

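The genes described here are 9 clade B serpins, SERPINB1, SERPINB2, SERPINB3, SERPINB4, SERPINB5, SERPINB7, SERPINB8, SERPINB12 and SERPINB13. They were chosen by gene symbol, and all 9 were found among the 26364 genes of the deposited count table. All 9 also passed the filter on low counts that left 15757 genes for testing. Polyadenylated RNA was sequenced from nTERT-1, an immortalised human keratinocyte line, in 4 genotypes at 3 culture stages, with 2 libraries in each of the 12 groups. The genotypes are labelled NT, KAT2A_KD, KAT2B_KD and KAT2AB_KD, for knockdown of the lysine acetyltransferase KAT2A, of its paralog KAT2B, or of both. NT served here as the reference genotype. The stages are Subconfluent, Confluent and Differentiated, which the deposited sample table puts at day 4. The libraries called replicates 1 and 2 of a group below carry the replicate numbers 2 and 3 in that table. All 12 groups are the same line and carry the same treatment label, keratinocyte differentiation. The labels do not expand NT, name the knockdown method, or say whether the libraries of a group came from separate cultures. The p-values below therefore measure the spread between these libraries, which may be technical.

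Serpins are a superfamily of proteins that mostly inhibit proteases. The protease cuts an exposed reactive loop, the serpin springs into a new fold, and the enzyme is trapped in a covalent complex. Clade B members lack a classical signal peptide and act mainly inside cells, where they restrain serine proteases and, in an unusual crossover, papain-like cysteine cathepsins. In human epidermis several of them accumulate in the upper living layers, and inherited loss of SERPINB7 or SERPINB8 causes disorders of skin peeling or palmoplantar thickening.

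The libraries held 8010178 to 16054003 counts each. KAT2A was at 30.1 to 38.5 CPM (reads counted per gene, scaled to library size) in the Subconfluent and Confluent NT libraries and at 3.46 to 5.06 CPM in the same stages of KAT2A_KD. KAT2B was at 40.4 and 44.8 CPM in Differentiated NT libraries and at 4.58 and 8.59 CPM in KAT2B_KD. In KAT2AB_KD the paired libraries differed more, with KAT2B at 5.85 and 18.9 CPM at the Differentiated stage. Levels of KAT2A at Differentiated and in KAT2AB_KD, and of KAT2B before Differentiated, are not given here. Summed over 8 keratinocyte markers, NT libraries stood at 16157 to 43944 CPM. Over 10 differentiation markers they rose from 447 to 471 CPM at Subconfluent to 41941 and 51719 CPM at Differentiated. Over all libraries, sums of other cell types' markers were 2.92 to 53.7 CPM for 8 fibroblast markers, 4.71 to 17.7 CPM for 7 melanocyte markers (1 at 0 throughout) and 16.3 to 68.4 CPM for 6 immune cell markers (2 at 0 throughout).

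SERPINB3 and SERPINB4, once called squamous cell carcinoma antigens, are close copies, and their sequences are shown first because they bear on how their counts can be read. Their coding sequences, taken from the GENCODE v29 transcripts, are 1173 bases each, differ at 56 positions and are 95.23% identical. The 90-base stretch with the most differences, bases 970 to 1059 of the coding sequence, has 13, set in capitals in the 2 sequences.
SERPINB3: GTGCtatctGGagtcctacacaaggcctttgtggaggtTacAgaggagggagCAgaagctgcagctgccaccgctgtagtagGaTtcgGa
SERPINB4: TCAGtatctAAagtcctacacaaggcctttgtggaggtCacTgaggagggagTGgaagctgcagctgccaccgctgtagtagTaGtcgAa
Of the 1124 windows of 50 bases in either coding sequence, 23.1% occur exactly in the other, and 9.92% of windows of 75 bases do. The read length and the handling of reads that map to several genes are not given in the sources used here. The counts of the 2 genes ran almost in parallel. SERPINB3 had 13 to 19559 counts per library and SERPINB4 13 to 17938, and in the 17 libraries with at least 100 SERPINB4 counts the ratio of SERPINB3 to SERPINB4 stayed between 1.04 and 1.2. Values for the pair are given for each gene below, but they cannot be taken as independent measurements of 2 genes. With the 2 genes summed into 1, no result for the pair was lost.

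**Figure D1:**
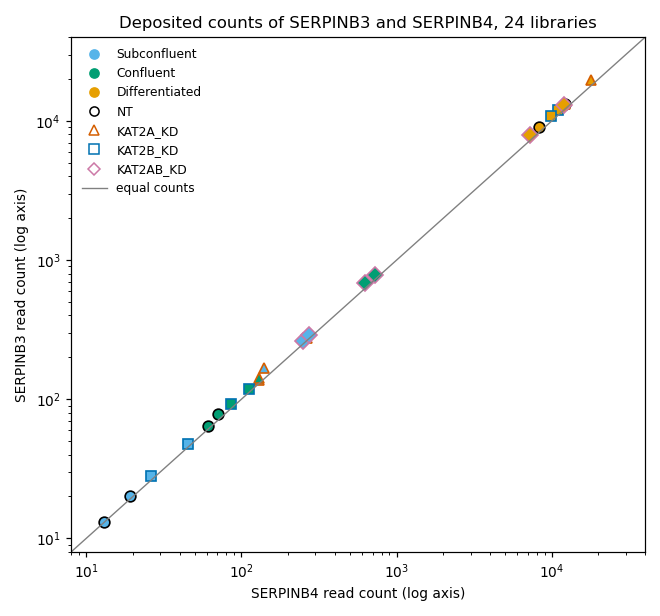
Deposited read counts of SERPINB3 (y axis) against SERPINB4 (x axis) in 24 libraries, both on log axes, with fill colour for culture stage and symbol for genotype. All libraries lie on or just above the grey line of equal counts, with ratios of 1 to 1.2.

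Differentiation raised 8 of the 9 serpins in NT cells and lowered 1. Against Confluent, SERPINB3, SERPINB4 and SERPINB12 rose by at least 189-fold, SERPINB7 and SERPINB13 by 12.6-fold and 7.60-fold, and SERPINB2, SERPINB5 and SERPINB8 by 2.30-fold to 3.07-fold, while SERPINB1 fell. By edgeR's quasi-likelihood test with Benjamini-Hochberg adjustment over all tested genes, at a threshold of 0.05, 50.4% of genes passed in this comparison and 24.3% passed upward. In RNA from a whole culture, more cells that express a gene and more RNA per cell cannot be told apart. The fibroblast and immune sums were also higher in the NT Differentiated libraries than in the Confluent ones, at 40.5 and 53.7 CPM against 2.92 and 5.18 CPM, and at 40.0 and 47.7 CPM against 17.2 and 17.9 CPM. Most of the fibroblast sum was COL1A1, at a mean of 45.4 CPM, and most of the immune sum CD68, at 37.9 CPM, and their part in the results was not tested. The 9 log2 changes had a median of 2.93, against -0.01 over all genes tested. SERPINB12 passed the filter on low counts only through its Differentiated libraries. Its calls for a rise to that stage, in NT and in the knockdown lines below, therefore carry little information of their own.

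SERPINB3 and SERPINB4 went from low levels to high ones. SERPINB3, which inhibits cathepsins L, S and K, was at 6.12 and 4.56 CPM in the NT Confluent libraries and at 794 and 1242 CPM in the Differentiated ones. The lowest Differentiated library of any genotype, at 602 CPM, lay far above the highest Confluent one, at 47.7 CPM. The log2 change in NT was 7.57 (SE 0.40, adjusted p = 2.61e-11). SERPINB4, which inhibits cathepsin G and mast cell chymase, was at 5.57 and 4.34 CPM and then at 728 and 1144 CPM (log2 7.56, SE 0.41, adjusted p = 3.14e-11).

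SERPINB13, known as headpin and another inhibitor of cathepsins L and K, started from a higher level. It was at 53.9 and 49.0 CPM in NT Confluent libraries and at 387 and 395 CPM in Differentiated ones, with little spread between paired libraries. Its log2 change was 2.93 (SE 0.18, adjusted p = 1.80e-10).

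SERPINB12, an inhibitor of trypsin-like serine proteases, was close to undetected before differentiation. It had 0 counts in both NT Confluent libraries and 0 and 0.515 CPM in the NT Subconfluent ones. In Differentiated NT libraries it stood at 126 and 88.8 CPM. Set against a floor of 3 counts over the Confluent group, it was at least 966-fold higher. The switch was seen in every genotype, with at most 0.579 CPM in any of the 16 undifferentiated libraries and at least 56.6 CPM in every Differentiated one.

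Among the inhibitors of serine proteases, SERPINB2, the plasminogen activator inhibitor of keratinocytes and macrophages, was already abundant in proliferating cells. In NT it was at 47.2 and 43.1 CPM at Subconfluent, 135 and 129 CPM at Confluent, and 275 and 332 CPM at Differentiated. The 3 stages did not overlap. From Confluent to Differentiated its log2 change was 1.20 (SE 0.19, adjusted p = 2.98e-05). SERPINB8, an inhibitor of the proprotein convertase furin, had 36.7 and 33.5 CPM at Confluent and 87.7 and 96.1 CPM at Differentiated (log2 1.39, SE 0.17, adjusted p = 1.01e-06).

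SERPINB1, an inhibitor of neutrophil elastase, cathepsin G and proteinase 3, was the exception. In NT it was at 8.52 and 6.53 CPM at Subconfluent, 21.2 and 31.0 CPM at Confluent, and 9.64 and 14.4 CPM at Differentiated, so its highest level was the middle stage. The fall from Confluent to Differentiated was 2.17-fold (log2 -1.12, SE 0.28, adjusted p = 0.00215). Without NT Differentiated replicate 1 it no longer passed (log2 -0.83, adjusted p = 0.0517). The NT Confluent libraries stand apart in another respect, with the highest sums over 25 interferon-stimulated genes of all libraries, 1869 and 2282 CPM against 336 to 1462 CPM in the Differentiated libraries and at most 553 CPM in the other undifferentiated ones. The part of that difference in these results was not tested. Measured from Subconfluent, which has no such level, SERPINB1 differed by 0.67 (adjusted p = 0.0579) and did not pass, while the other 8 serpins again rose, SERPINB3 by 9.68 and SERPINB8 by 1.81 on the log2 scale.

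SERPINB5 and SERPINB7 had the highest levels per length of the 9 in undifferentiated NT cells. SERPINB5, or maspin, a tumour suppressor that does not inhibit proteases by the serpin mechanism, was at 583 and 521 CPM in NT Confluent and 1509 and 1878 CPM in NT Differentiated libraries (log2 1.62, SE 0.20, adjusted p = 1.45e-06). SERPINB7, first described as megsin in kidney mesangial cells, went from 161 and 174 CPM to 2066 and 2158 CPM (log2 3.66, SE 0.20, adjusted p = 3.08e-11). Neither pair of groups overlapped.

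**Figure D2:**
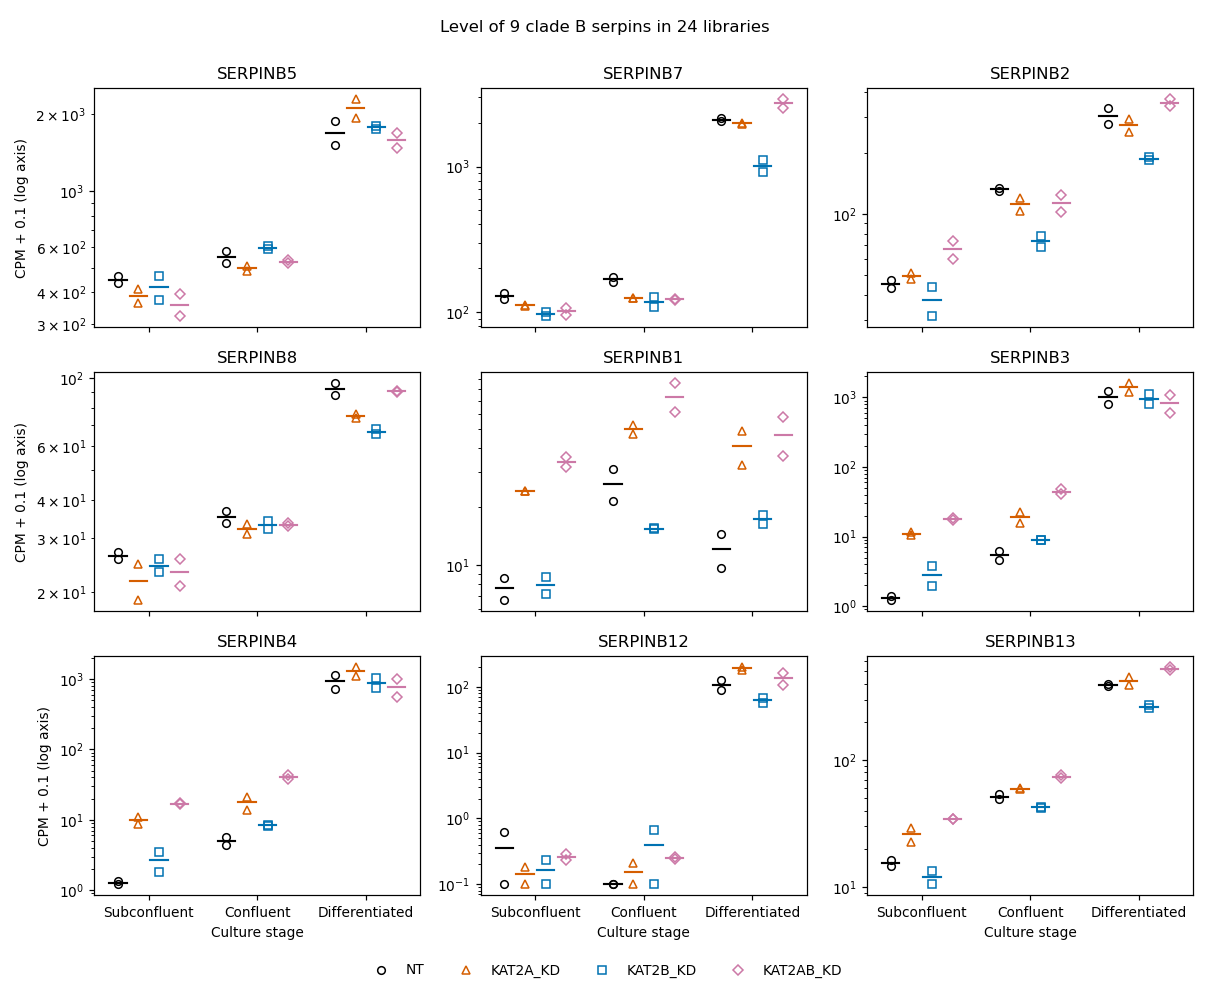
Level of each of the 9 serpins in every library, as CPM plus 0.1 on a log axis, by culture stage (x axis) and genotype (colour and symbol), with a short line at the mean of the 2 libraries. All but SERPINB1 are highest at Differentiated in all 4 genotypes. SERPINB1 is higher in KAT2A_KD and KAT2AB_KD than in NT and KAT2B_KD at every stage.

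The order of the serpins changed with the stage. To set genes side by side, CPM was divided by the length of each gene's exons in GENCODE v29, in kilobases. In NT Subconfluent libraries the order was SERPINB5 (132 CPM per kilobase), SERPINB7 (54.6), SERPINB2 (20.8), SERPINB8 (5.43), SERPINB13 (4.76), SERPINB1 (2.87), SERPINB3 (0.686), SERPINB4 (0.678) and SERPINB12 (0.202). Each step was wider than the spread between libraries except that between SERPINB3 and SERPINB4. In NT Differentiated libraries SERPINB7 led with 892 CPM per kilobase. SERPINB3 (573), SERPINB4 (535) and SERPINB5 (500) followed, and their libraries overlapped. SERPINB1 was last with 4.59 CPM per kilobase, below SERPINB12 with 84.1 and SERPINB8 with 19.1.

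The same 8 serpins rose over differentiation in the knockdown lines, SERPINB12 among them with the same limit from the filter on low counts. From Confluent to Differentiated 8 rose and 0 fell in KAT2A_KD, where 43.1% of genes passed and 21.4% passed upward. In KAT2B_KD 8 rose and 0 fell (39.6% of genes passed, 19.3% upward), and in KAT2AB_KD 8 rose and SERPINB1 fell (46.2% passed, 22.6% upward). The medians over the 9 were 2.83, 2.64 and 2.83, against -0.01, 0 and -0.02 over all genes tested. The fall of SERPINB1 in KAT2AB_KD was small (log2 -0.65, SE 0.26, adjusted p = 0.0480). It was lost without KAT2AB_KD Confluent replicate 2 (adjusted p = 0.351), without KAT2AB_KD Differentiated replicate 2 (0.374), with RLE scaling (0.0712) and by DESeq2 (0.0760).

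Confluence alone moved fewer of them. From Subconfluent to Confluent 5 serpins rose in NT and 0 fell, where 0.901% of genes passed, and the median log2 change of the 9 was 1.54 against 0 over all genes. SERPINB13 went from 16.1 and 14.4 CPM to 53.9 and 49.0 CPM (log2 1.75, SE 0.18, adjusted p = 9.02e-05). SERPINB2 rose 2.92-fold (log2 1.54, SE 0.19, adjusted p = 0.000250). Both kept passing without each library in turn.

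The other calls in this step were lost when a library was left out, while their log2 changes stayed between 1.49 and 2.04 for SERPINB1, 1.88 and 2.31 for SERPINB3 and 1.86 and 2.22 for SERPINB4 over all alternatives. SERPINB1 rose 3.46-fold in NT (adjusted p = 0.00188), and no longer passed without NT Subconfluent replicate 2 (adjusted p = 0.0622) or NT Confluent replicate 2 (0.0546). SERPINB3 rose 4.32-fold from 1.32 and 1.12 CPM (adjusted p = 0.0108). Its call was lost without NT Subconfluent replicate 1 (0.133), NT Subconfluent replicate 2 (0.128) or NT Confluent replicate 1 (0.110). SERPINB4 rose 4.13-fold (adjusted p = 0.0163) and its call was lost without any 1 of the 4 libraries (0.0630 to 0.175). The end point of these changes is the NT Confluent group with its high interferon-stimulated gene level, whose part was not tested.

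In the knockdown lines the same step gave 2, 4 and 1 calls by edgeR, and 4, 6 and 6 by DESeq2 against 5 in NT. In KAT2A_KD, SERPINB13 (log2 1.19) and SERPINB2 (1.17) rose, with 0.235% of genes passing. In KAT2B_KD, SERPINB13 (1.84), SERPINB4 (1.70), SERPINB3 (1.70) and SERPINB2 (0.97) rose, with 1.61% passing. In KAT2AB_KD, SERPINB13 rose (1.11), with 0.609% passing. Most of these calls were lost without 1 library. In KAT2A_KD, SERPINB13 was lost without Subconfluent replicate 2 (adjusted p = 0.156), and SERPINB2 without Subconfluent replicate 1 (0.165), Subconfluent replicate 2 (0.201) or Confluent replicate 2 (0.104). In KAT2B_KD, SERPINB3 and SERPINB4 were lost without Subconfluent replicate 2, Confluent replicate 1 or Confluent replicate 2 (adjusted p from 0.0905 to 0.254). SERPINB2 was lost there without Subconfluent replicate 2 (0.193) or Confluent replicate 2 (0.113), while SERPINB13 in KAT2B_KD kept passing. In KAT2AB_KD, SERPINB13 was lost without Subconfluent replicate 1 (0.0810) or Subconfluent replicate 2 (0.0791). The changes of the knockdown lines in this step did not pass a test of their difference from NT. By edgeR 0 serpins passed for KAT2A_KD, KAT2B_KD and KAT2AB_KD, as did 0% of all genes in each, with 3, 2 and 2 serpins at an unadjusted p under 0.05 and 0 by DESeq2.

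The comparison of each knockdown with NT bears on what KAT2A and KAT2B each do. The 3 comparisons at a stage share the NT libraries. Cells with knockdown of KAT2A, alone or with KAT2B, had higher SERPINB3 and SERPINB4 before differentiation and higher SERPINB1 at most stages. Cells with knockdown of KAT2B alone had lower SERPINB7 and SERPINB2 after differentiation. Several of these calls, that of SERPINB2 among them, did not hold under every alternative. At Subconfluent 3 serpins were higher in KAT2A_KD than in NT (0.343% of genes passed) and 4 in KAT2AB_KD (2.7%). At Confluent it was 2 (0.647%) and 3 (2.28%), and at Differentiated 1 (1.22%) and 1 (2.74%). The Subconfluent and Confluent counts each include both SERPINB3 and SERPINB4, which are not independent measurements. No serpin was lower in either line by edgeR.

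SERPINB3 had the widest of these differences. At Subconfluent it was at 1.32 and 1.12 CPM in NT, 10.4 and 11.5 CPM in KAT2A_KD, 3.65 and 1.83 CPM in KAT2B_KD and 17.4 and 18.2 CPM in KAT2AB_KD. Every library of KAT2A_KD and KAT2AB_KD lay above every library of the other genotypes. Against NT it was 8.85-fold higher in KAT2A_KD (log2 3.15, SE 0.40, adjusted p = 0.000652) and 14.4-fold higher in KAT2AB_KD (log2 3.85, SE 0.39, adjusted p = 1.38e-05). SERPINB4 gave 8.13-fold and 14.0-fold. These 4 calls kept passing without each library in turn.

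At Confluent the difference was smaller. SERPINB3 was at 6.12 and 4.56 CPM in NT, 22.1 and 15.4 CPM in KAT2A_KD, 8.75 and 8.87 CPM in KAT2B_KD and 41.0 and 47.7 CPM in KAT2AB_KD, and the genotypes again did not overlap. In KAT2AB_KD it was 8.30-fold above NT (adjusted p = 3.52e-05). In KAT2A_KD it was 3.52-fold above NT (log2 1.82, SE 0.34, adjusted p = 0.0104), but this call and that of SERPINB4 were lost without NT Confluent replicate 1 (SERPINB3 0.0793), NT Confluent replicate 2 (0.201) or KAT2A_KD Confluent replicate 1 (0.118). Sums over 10 differentiation markers at Subconfluent were 447 and 471 CPM in NT, 532 and 558 CPM in KAT2A_KD, 410 and 478 CPM in KAT2B_KD and 558 and 613 CPM in KAT2AB_KD. At Confluent they were 558 and 775 CPM in NT, 710 and 997 CPM in KAT2A_KD, 761 and 849 CPM in KAT2B_KD and 981 and 1020 CPM in KAT2AB_KD. The interferon-stimulated gene sums at Confluent were 1869 and 2282 CPM in NT, 346 and 369 CPM in KAT2A_KD, 267 and 321 CPM in KAT2B_KD and 434 and 443 CPM in KAT2AB_KD. The part of these sums in the knockdown differences was not tested.

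After differentiation the genotypes overlapped for SERPINB3. It was at 794 and 1242 CPM in NT, 1601 and 1199 CPM in KAT2A_KD, 1117 and 809 CPM in KAT2B_KD and 1080 and 602 CPM in KAT2AB_KD. None of the differences from NT passed, and the 95% interval of KAT2AB_KD against NT ran from -0.92 to 0.37 on the log2 scale. The rise of SERPINB3 over differentiation was 191-fold in NT and 19.0-fold in KAT2AB_KD. The difference between these 2 log2 changes was -3.33 (SE 0.45, adjusted p = 0.000423), and for SERPINB4 it was -3.33 (SE 0.45, adjusted p = 0.000476). By edgeR 2 serpins passed that test in KAT2AB_KD, where 1.33% of genes passed. By DESeq2 it was 3, with SERPINB7 (log2 difference 0.83, adjusted p = 0.000977). In KAT2A_KD (0.616% of genes) and KAT2B_KD (0.888%) 0 passed by edgeR, with 3 and 3 at an unadjusted p under 0.05 and 0 and 0 by DESeq2. The values for SERPINB3 were -1.36 (adjusted p = 0.255) and -0.80 (0.536). All 3 differences share the NT libraries.

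SERPINB1 differed between genotypes at every stage. In KAT2A_KD it was at 24.1 and 23.9, then 47.2 and 52.4, then 32.8 and 48.9 CPM over the 3 stages. In KAT2AB_KD it was at 32.0 and 36.1, 60.8 and 86.0, and 57.3 and 36.3 CPM, and in KAT2B_KD at 8.60 and 7.05, 15.3 and 15.4, and 16.3 and 18 CPM. At each stage all 4 libraries of KAT2A_KD and KAT2AB_KD lay above all 4 of NT and KAT2B_KD. SERPINB1 was the only member of the 9 to do so at all 3 stages, as did 0.267% of all tested genes. At Subconfluent 5 of the 9 separated in this way (SERPINB1, SERPINB2, SERPINB3, SERPINB4 and SERPINB13, against 5.17% of genes), at Confluent 4 (without SERPINB2, 4.54%), and at Differentiated 1 (4.17%).

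In KAT2AB_KD, SERPINB1 was 4.50-fold higher at Subconfluent (adjusted p = 0.000159), 2.81-fold at Confluent (0.00281) and 3.89-fold at Differentiated (0.000632). The Confluent call was lost without NT Confluent replicate 1 (log2 1.24, adjusted p = 0.101). In KAT2A_KD it was 3.17-fold higher at Subconfluent (log2 1.66, SE 0.28, adjusted p = 0.00717) and 3.40-fold at Differentiated (log2 1.76, SE 0.28, adjusted p = 0.00307), with 0.93 (adjusted p = 0.181) at Confluent. The Subconfluent call was lost without any 1 of the 4 libraries (0.0579 to 0.182), and the Differentiated one without NT Differentiated replicate 1 (0.0580). KAT2A_KD Differentiated libraries also had higher sums over the 25 interferon-stimulated genes, 1335 and 1462 CPM against 574 and 592 CPM in NT, and the part of this was not tested.

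SERPINB13 was higher in KAT2AB_KD than in NT at Subconfluent, at 34.4 and 34.1 CPM against 16.1 and 14.4 CPM (2.24-fold, log2 1.16, SE 0.18, adjusted p = 0.000758). KAT2A_KD had 29.3 and 22.7 CPM, above both NT libraries, but the log2 difference of 0.77 did not pass by edgeR (adjusted p = 0.0774) and passed by DESeq2 (0.000492). At the later stages SERPINB13 did not pass against NT in either line by edgeR. By DESeq2 it passed in KAT2AB_KD at Confluent (log2 0.54, adjusted p = 0.00767) and Differentiated (log2 0.44, adjusted p = 0.0297).

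Knockdown of KAT2B alone gave other calls. Against NT, 0 serpins passed at Subconfluent by edgeR (0.0888% of genes passed), with 3 at an unadjusted p under 0.05 and 0 by DESeq2. SERPINB3 and SERPINB4 were higher than in NT there too, as in KAT2A_KD and KAT2AB_KD, but by less. Their log2 differences were 1.14 and 1.08 (edgeR adjusted p = 0.845 and 0.953). At Confluent 0 passed (0.463%), with 6 at an unadjusted p under 0.05 and 2 by DESeq2, SERPINB7 and SERPINB2. Lower SERPINB7 at Confluent was not particular to KAT2B_KD. It was at 161 and 174 CPM in NT, 124 and 125 CPM in KAT2A_KD, 127 and 108 CPM in KAT2B_KD and 120 and 123 CPM in KAT2AB_KD. By DESeq2 it also passed in KAT2AB_KD at that stage (log2 -0.45, adjusted p = 0.0270). At Differentiated 2 serpins were lower in KAT2B_KD than in NT by edgeR, where 4.85% of genes passed. SERPINB7 was at 1104 and 915 CPM against 2066 and 2158 CPM in NT. Its libraries lay below all 6 Differentiated libraries of the other genotypes. SERPINB7 was 2.09-fold lower than in NT (log2 -1.06, SE 0.18, adjusted p = 0.00163), and the call held without each library in turn.

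SERPINB2 was lower in the same libraries, at 183 and 190 CPM against 275 and 332 CPM (log2 -0.70, SE 0.19, adjusted p = 0.0361). That call was lost without any 1 of the 4 libraries (adjusted p from 0.0556 to 0.238) and when genes of low counts were kept in the fit (0.0647). In Differentiated KAT2B_KD libraries SERPINB13 was at 255 and 270 CPM, SERPINB12 at 67.8 and 56.6 CPM and SERPINB8 at 68.0 and 65.5 CPM. Their log2 differences from NT were -0.57 (adjusted p = 0.0583), -0.79 (0.247) and -0.46 (0.115), and none passed. SERPINB13 passed with a replicate block (0.0417), SERPINB13 and SERPINB8 passed by DESeq2 (0.00103 and 0.0316), and SERPINB12 passed when genes of low counts were kept (0.0262). Differentiation marker sums were 21973 and 29711 CPM in KAT2B_KD against 41941 and 51719 CPM in NT, 20671 and 33469 CPM in KAT2A_KD and 21462 and 27540 CPM in KAT2AB_KD. SERPINB7 was at 2010 and 1983 CPM in KAT2A_KD and 2536 and 2916 CPM in KAT2AB_KD, and did not pass against NT in either. Sums over 10 mitosis genes were 53.9 and 70.3 CPM in KAT2B_KD, 48.4 and 57.1 CPM in KAT2A_KD, 23.2 and 30.7 CPM in KAT2AB_KD and 16.1 and 28.6 CPM in NT. The part of either sum in the KAT2B_KD values was not tested.

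By edgeR, SERPINB5 and SERPINB8 did not pass in any of the 9 comparisons of a knockdown with NT. For SERPINB5 these log2 differences ran from -0.33 to 0.32, and the widest 95% interval bounds were -0.75 and 0.74.

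**Figure D3:**
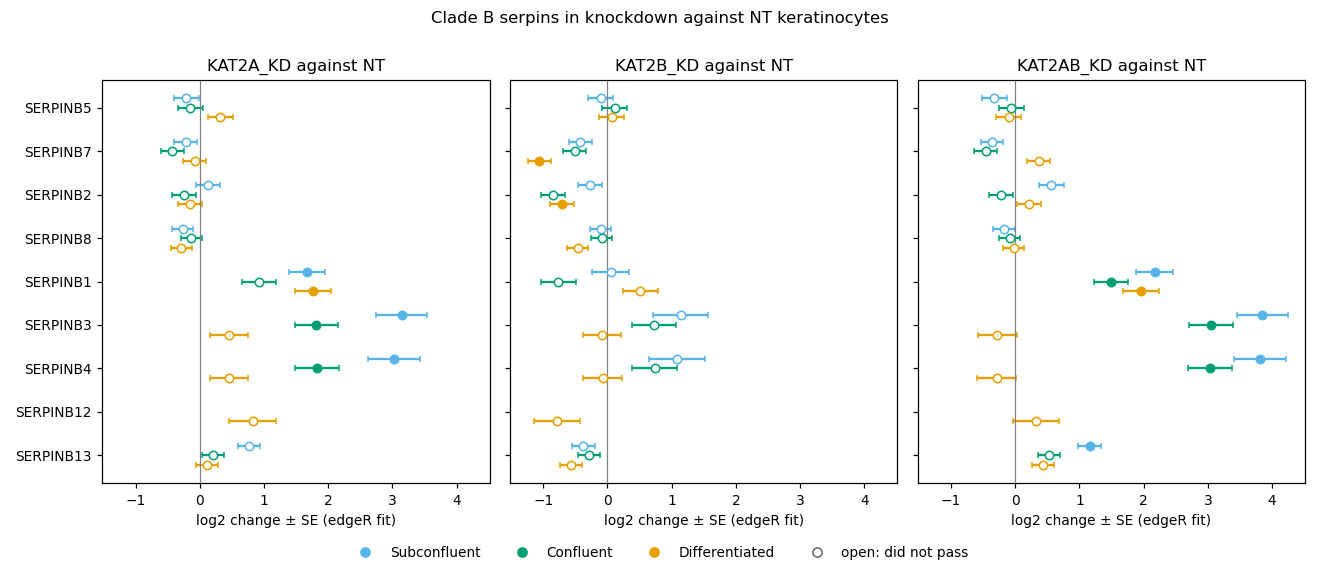
Log2 difference from NT with its standard error for each serpin in KAT2A_KD, KAT2B_KD and KAT2AB_KD at 3 stages (colour), with filled points for those that passed. SERPINB12 is drawn only at Differentiated, since it has few or 0 counts before. SERPINB1, SERPINB3 and SERPINB4 lie to the right in KAT2A_KD and KAT2AB_KD, and SERPINB7 at Differentiated lies to the left in KAT2B_KD.

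Direct comparisons of the 2 single knockdowns gave 4 serpins higher in KAT2A_KD than in KAT2B_KD at Subconfluent (0.533% of genes passed), 1 at Confluent (0.286%) and 4 at Differentiated (2.38%). At Subconfluent these were SERPINB3 (log2 2.01), SERPINB4 (1.94), SERPINB1 (1.62) and SERPINB13 (1.14). Each of these 4 was lost without at least 1 library, and all 4 without KAT2B_KD Subconfluent replicate 2 (adjusted p from 0.0991 to 0.319). SERPINB3 and SERPINB4 were also lost without KAT2A_KD Subconfluent replicate 2 (0.0619 and 0.129), SERPINB1 and SERPINB13 without KAT2A_KD Subconfluent replicate 1 (0.0563 and 0.0964), and SERPINB1 without KAT2B_KD Subconfluent replicate 1 (0.0568). At Confluent SERPINB1 differed by 1.70, which was lost without KAT2A_KD Confluent replicate 2 (0.0531), KAT2B_KD Confluent replicate 1 (0.152) or KAT2B_KD Confluent replicate 2 (0.0643).

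In Differentiated cells the single knockdowns differed in SERPINB7 (log2 0.98, SE 0.18, adjusted p = 0.00451), which held without each library. SERPINB12 was at 199 and 181 CPM in KAT2A_KD and 67.8 and 56.6 CPM in KAT2B_KD, a 3.05-fold difference (adjusted p = 0.0220). SERPINB1 differed by 1.25 and SERPINB13 by 0.68. SERPINB12 and SERPINB13 were lost without any 1 of the 4 libraries (adjusted p from 0.0527 to 0.257), and SERPINB13 also when genes of low counts were kept (0.111). SERPINB1 was lost without KAT2A_KD Differentiated replicate 2 (0.163), KAT2B_KD Differentiated replicate 1 (0.139) or KAT2B_KD Differentiated replicate 2 (0.0549).

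Between the double knockdown and KAT2A_KD, some serpins had libraries that did not overlap, but by edgeR 0 passed at Subconfluent (0% of genes), Confluent (0.00635%) and Differentiated (0.317%), with 4, 3 and 4 at an unadjusted p under 0.05 and 0, 0 and 1 (SERPINB7) by DESeq2. For SERPINB3 at Confluent the log2 difference was 1.24 with an unadjusted 95% interval of 0.56 to 1.92 (adjusted p = 0.573). It passed when genes of low counts were kept (0.00179). Against KAT2B_KD, KAT2AB_KD had 5 higher serpins at Subconfluent (2.61% of genes passed), 4 at Confluent (1.61%) and 4 at Differentiated (11%). SERPINB1 was among them at each stage, 4.35-fold, 4.77-fold and 2.73-fold higher. SERPINB3 was 6.54-fold and 5.02-fold higher before differentiation, and SERPINB7 2.70-fold higher after it (2536 and 2916 CPM against 1104 and 915 CPM). SERPINB13 passed at all 3 stages (adjusted p = 3.55e-05, 0.0166 and 0.000756), SERPINB4 at Subconfluent and Confluent (2.73 and 2.30), and SERPINB2 at Subconfluent and Differentiated (0.83 and 0.92), with log2 differences in brackets. The Subconfluent call of SERPINB2 was lost without KAT2B_KD Subconfluent replicate 2 (adjusted p = 0.191) or KAT2AB_KD Subconfluent replicate 1 (0.268). The Confluent call of SERPINB13 was lost without KAT2B_KD Confluent replicate 1 (0.181), KAT2B_KD Confluent replicate 2 (0.118) or KAT2AB_KD Confluent replicate 1 (0.140).

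All but 1 of the 9 lie in a single run of serpin genes on chromosome 18, and SERPINB1 lies on chromosome 6 beside SERPINB9 and SERPINB6. In the RefSeq order on chromosome 18 the run is SERPINB5, SERPINB12, SERPINB13, SERPINB4, SERPINB3, SERPINB11, SERPINB7, SERPINB2, SERPINB10 and SERPINB8, with the minor histocompatibility gene HMSD before SERPINB8. Of its neighbours on one side, VPS4B, an ATPase of endosomal sorting, rose over differentiation in NT by 0.79 log2, and KDSR, an enzyme of sphingolipid synthesis, was at -0.24 and did not pass. On the other side, DSEL fell by 1.93 log2, and HMSD within the run was at 0.28 and did not pass.

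**Figure D4:**
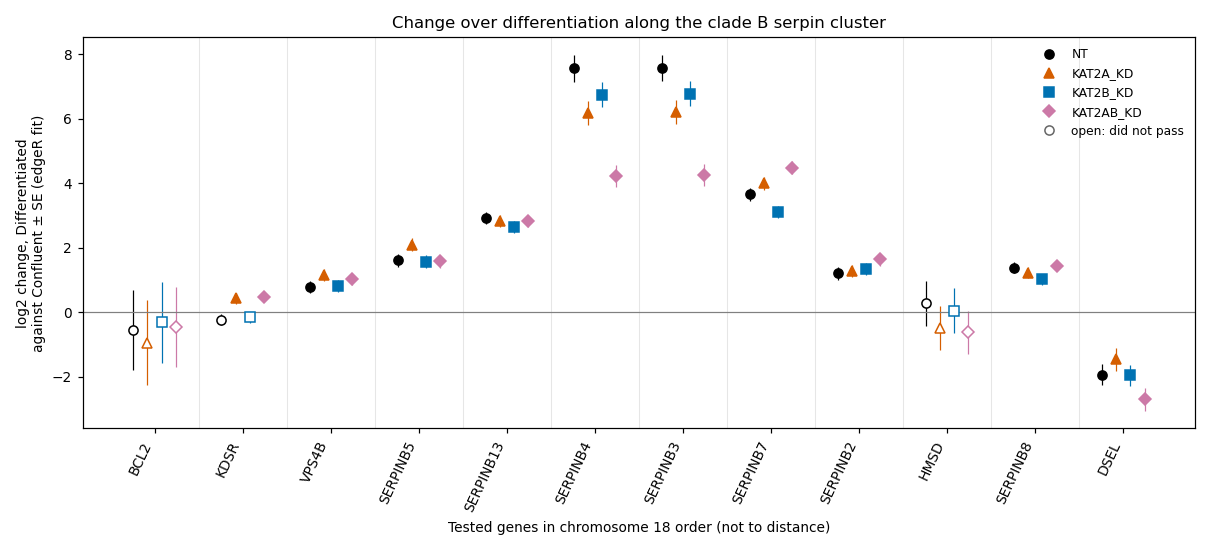
Log2 change from Confluent to Differentiated with its standard error (y axis) for tested genes in their order on chromosome 18 (x axis, not to distance), by genotype, with filled symbols for those that passed. SERPINB12 and SERPINB10 are left out because they had 0 to 3 counts in some Confluent groups. The 7 serpins drawn all rose in the 4 genotypes, and DSEL fell in all 4.

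The 4 other clade B serpins behaved less uniformly. SERPINB10, best known from blood cells, had 3 counts in NT Confluent libraries and 69 in Differentiated ones, a ratio of 28.0 with a 95% counting interval of 9.18 to 139. It was higher in KAT2B_KD than in NT at Differentiated, at 15.9 and 12.5 CPM against 3.33 and 2.92 CPM (log2 2.18, SE 0.52, adjusted p = 0.0196). SERPINB6, an inhibitor of cathepsin G, fell in NT from a Confluent mean of 57.8 CPM to 30.1 and 26.7 CPM (log2 -1.02, adjusted p = 0.000939). SERPINB9, the granzyme B inhibitor of lymphocytes, was at 0.529 to 3.87 CPM in NT and did not pass between Confluent and Differentiated (log2 0.91, adjusted p = 0.189). SERPINB11 had 0 counts in all 16 undifferentiated libraries and was not tested.

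Of 17 listed serpins outside clade B, 10 were tested, and in NT 3 rose and 5 fell over differentiation, with a median of -0.94. Over all genes 24.3% rose and 26.1% fell in this comparison. The collagen chaperone SERPINH1 fell by 1.83 log2. SERPINA12, or vaspin, rose from 0 counts in both Confluent libraries to a mean of 18.9 CPM. Of the other list, 10 of 10 tested epidermal inhibitors of other families rose and 0 fell, with a median of 4.74. Among them SPINK5, the inhibitor of kallikreins that is lost in Netherton syndrome, went from a mean of 2.77 to 1827 CPM (log2 9.37), SLPI, an elastase inhibitor, from 8.88 to 810 CPM (6.51), and CSTA, a cystatin of the cornified envelope, from 103 to 3042 CPM (4.88).

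Of 15 listed target proteases and their receptor, 9 were tested. Over differentiation in NT 3 rose and 2 fell, shares near the 24.3% and 26.1% over all genes, with a median of 0.14. CTSV, a cathepsin of epidermis and thymus, rose from a mean of 24.2 to 140 CPM (log2 2.53, adjusted p = 1.35e-08). FURIN, the target of SERPINB8, rose from 42.9 to 167 CPM (log2 1.96, adjusted p = 2.02e-07). PLAT, tissue plasminogen activator and a target of SERPINB2, fell from a mean of 7.50 CPM to 0 counts in both libraries. PLAU, the other plasminogen activator, did not pass (log2 0.07, adjusted p = 0.806). In Differentiated KAT2B_KD cells SERPINB7 was lower than in NT, and so was SERPINB2, by a call that did not hold under every alternative. There 4 of the 9 tested genes of this list were also lower and 1 higher. Of 10 tested epidermal inhibitors of other families, 4 were lower and 0 higher. Over all genes 3.18% were lower and 1.67% higher in that comparison.

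Likeness of pattern was measured by Pearson's r of mean log2 CPM over the 12 groups, against 12562 genes (12563 for SERPINB12) of at least moderate level. The values are descriptions, since a shared change at differentiation gives many genes a high r. SERPINB2 and SERPINB13 were each near OVOL1, a transcription factor of epidermal differentiation (r = 0.985 and 0.993), and near each other (0.979). SERPINB13 was also near TMEM79 (0.994) and IL36RN (0.993), and SERPINB2 near IL36G (0.975). After each other, SERPINB3 and SERPINB4 were most like WFDC5 (0.992 and 0.993) and ACPP (0.990 and 0.990). SERPINB5 was most like PTPRZ1 (0.996), ARRDC3 (0.994) and LOC101927267 (0.993). SERPINB7 was most like RAB11A (0.997), NRBF2 (0.995) and HINT3 (0.995), and SERPINB8 most like KLF4 (0.989), ZNRF2 (0.988) and SLC44A5 (0.987). SERPINB12 was most like ATP1B1 (0.995), EIF4A2 (0.995) and MXI1 (0.995). SERPINB1 stood apart, with NMU (0.937), MPP2 (0.896) and HSD17B3 (0.882) as its nearest genes, and an r of 0.08 to 0.42 with the other 8 serpins, whose r with one another ran from 0.85 upward.

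The stretches before the starts of the genes are given because 8 of the 9 moved together over differentiation. RefSeq start windows of GRCh38.p14, another build than the hg19 of the counts, were found for all 9 genes, 12 windows in all, and the 250 bases before each start were searched on both strands. The AP-1 family of transcription factors, active in keratinocyte differentiation, binds TGACTCA and its reverse complement TGAGTCA. The wider motif TGANTCA, with any middle base, was present in 7 of the 12 windows. These were of 6 of the 9 genes, SERPINB2, SERPINB5, SERPINB7, SERPINB8, SERPINB12 and SERPINB13. Over all 35116 windows of this length 6.57% hold TGANTCA. The middle base was C or G in SERPINB7, SERPINB8 and SERPINB13 only, and the share of all windows with those letters was not counted. SERPINB2, SERPINB5 and SERPINB12 held only TGAATCA or TGATTCA. The motif TATAAA was present in 4 of the 12 windows, against 10.7% of all windows. These are matches of letters, and no binding was measured. Shown are 3 windows with TGANTCA in capitals. The first is of a gene that was lower in KAT2B_KD (SERPINB7, chr18:63777531-63777780, plus strand). The others are of the furin inhibitor (SERPINB8, chr18:63969831-63970080, plus strand) and of a cathepsin inhibitor (SERPINB13, chr18:63587093-63587342, plus strand).
SERPINB7: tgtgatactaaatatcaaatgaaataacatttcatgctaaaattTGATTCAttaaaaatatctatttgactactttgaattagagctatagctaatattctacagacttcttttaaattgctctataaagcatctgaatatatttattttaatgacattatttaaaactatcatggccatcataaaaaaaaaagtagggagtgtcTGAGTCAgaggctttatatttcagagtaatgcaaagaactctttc
SERPINB8: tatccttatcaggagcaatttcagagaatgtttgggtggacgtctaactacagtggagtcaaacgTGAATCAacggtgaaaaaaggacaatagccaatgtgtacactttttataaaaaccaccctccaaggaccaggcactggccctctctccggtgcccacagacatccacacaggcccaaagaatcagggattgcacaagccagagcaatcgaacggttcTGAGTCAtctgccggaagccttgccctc
SERPINB13: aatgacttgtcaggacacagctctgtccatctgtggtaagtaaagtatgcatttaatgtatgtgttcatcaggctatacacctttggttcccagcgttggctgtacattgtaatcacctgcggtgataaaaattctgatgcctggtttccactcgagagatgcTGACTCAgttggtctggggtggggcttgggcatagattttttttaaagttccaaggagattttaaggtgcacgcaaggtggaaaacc
In the windows shown for SERPINB7 and SERPINB8 a TGAGTCA lies 45 and 28 bases before the start, and in that of SERPINB13 a TGACTCA lies 87 bases before it. The SERPINB7 window shown is window 3 of that gene. Its window 2 holds a TGAGTCA 39 bases before another start, and its window 1 holds no TGANTCA. Which start these cells use was not measured.

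SERPINB1, SERPINB3 and SERPINB4 hold no TGANTCA in these 250 bases. Of the serpins with counts at every stage in NT, SERPINB3 and SERPINB4 rose most over differentiation there. Their windows (chr18:63661894-63662143 and chr18:63644257-63644506, both minus strand) differ at 3 positions, in capitals, and are 98.8% identical.
SERPINB3: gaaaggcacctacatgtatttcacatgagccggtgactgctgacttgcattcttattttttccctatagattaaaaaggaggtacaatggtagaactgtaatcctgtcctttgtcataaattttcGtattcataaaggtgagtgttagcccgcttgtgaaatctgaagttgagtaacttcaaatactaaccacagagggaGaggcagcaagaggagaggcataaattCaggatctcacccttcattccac
SERPINB4: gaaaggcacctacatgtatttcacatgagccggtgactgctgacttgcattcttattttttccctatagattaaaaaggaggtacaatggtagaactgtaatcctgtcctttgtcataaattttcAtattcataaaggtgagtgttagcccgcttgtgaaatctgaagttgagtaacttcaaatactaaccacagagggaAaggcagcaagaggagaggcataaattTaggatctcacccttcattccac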

How the data were processed

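Gene counts were analysed for 24 libraries in 12 groups of 2, formed by the genotype and stage in the labels. The authors deposited raw read counts per gene, whole numbers with no normalization. FastQC, Bowtie2, featureCounts, DESeq2 and the build hg19 are named by the submitters' processing notes, while the annotation, strand setting and handling of multi-mapping reads are not given in the sources used here. The table held 1 column that matched no sample, which was not used.

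The counts were fitted in 1 model over the 12 groups with edgeR 4.0.16 in R 4.3.3 (filterByExpr, TMM scaling, glmQLFit and glmQLFTest), with Benjamini-Hochberg adjustment over 15757 genes for each of 32 comparisons and a threshold of 0.05. The fit had 12 residual degrees of freedom, and the procedure was tested on simulated data. That simulation changed few genes, unlike the step from Confluent to Differentiated here, so it does not test the scaling in that step. CPM values use TMM library sizes. A fold against a group at 0 counts uses a floor of 3 counts over the group. Intervals and floors on counts cover counting error only. The log2 CPM used for likeness has a prior count of 2.

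The 9 serpins and the gene lists were chosen with earlier results of these data known. Beside the 9, the text names the 4 other clade B serpins, up to 3 genes of lowest p per list in NT Differentiated against Confluent, and the 3 genes most alike to each serpin; 1 gene under this rule is not reported here. PLAU and the neighbours on chromosome 18 were named after their values were seen. Alternatives were RLE scaling, no filter on low counts, a replicate block, SERPINB3 and SERPINB4 summed, DESeq2 1.42.0 and each library left out. Where a library is left out, the lone sample of its group is assumed to vary like the other groups. Differentiated against Subconfluent was added after the data were seen.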

Additional observations from a re-analysis of the deposited data

Results flagged for a closer look

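The rise of SERPINB3 from Confluent to Differentiated differed between KAT2AB_KD and NT by -3.33 on the log2 scale, by the test of the difference itself (adjusted p = 0.000423, edgeR). For its near copy SERPINB4 the difference was -3.33 (adjusted p = 0.000476), from counts that cannot be read as independent of those of SERPINB3. In both genes the Confluent libraries of KAT2AB_KD lay above those of NT (SERPINB3 at 41.0 and 47.7 CPM against 6.12 and 4.56 CPM), while the Differentiated libraries overlapped. Both differences passed under every alternative that was run. At Confluent, sums over 10 differentiation markers were 981 and 1020 CPM in KAT2AB_KD against 558 and 775 CPM in NT, and sums over 25 interferon-stimulated genes were 434 and 443 CPM against 1869 and 2282 CPM. Their part in these differences was not tested.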

How the results depend on the processing

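Of 86 calls of a serpin in a comparison, 59 passed under every alternative, 27 were lost without at least 1 library, and 0 changed direction. RLE scaling lost 1, keeping genes of low counts lost 2 and gained 17, DESeq2 lost 1 and gained 24. The replicate numbers of the deposited sample table were not taken to pair libraries in the main fit. Even so, the median correlation of their deviations was 0.118, above the pairing threshold of 0.1, as were 37 of 66 pairs of groups. With a replicate block 0 calls were lost and 3 gained. Numbers of serpins passing changed as follows. From Subconfluent to Confluent, KAT2A_KD had 4 by DESeq2, and KAT2AB_KD had 4 with genes of low counts, 2 with the block and 6 by DESeq2. Against NT, KAT2A_KD at Differentiated had 2 with genes of low counts, KAT2B_KD had 2 at Confluent and 4 at Differentiated by DESeq2, and KAT2AB_KD had 5 at Confluent and 2 at Differentiated by DESeq2. KAT2A_KD against KAT2B_KD at Confluent had 3, and KAT2AB_KD against KAT2A_KD at Confluent 2, with genes of low counts, and KAT2AB_KD against KAT2A_KD at Differentiated 1 by DESeq2. The differences of KAT2A_KD and of KAT2B_KD from NT in the step to Differentiated had 2 each with genes of low counts. Without 1 library, the numbers from Subconfluent to Confluent were 2 to 3 in NT, 0 to 2 in KAT2A_KD, 1 to 4 in KAT2B_KD and 0 to 1 in KAT2AB_KD. Against NT they were 0 to 2 for KAT2A_KD at Confluent, 0 to 1 for KAT2A_KD at Differentiated and 1 to 1 for KAT2B_KD at Differentiated. KAT2A_KD against KAT2B_KD had 0 to 3, 0 to 1 and 1 to 2 over the 3 stages. The cause was not tested, except that a fit without 1 library has fewer samples. Over all genes, 142 passed from Subconfluent to Confluent in NT, 430 with genes of low counts and 395 by DESeq2. At 2 libraries per group, differences near 1 log2 often stay below the threshold, so a serpin that did not pass may still differ.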
